A study of Homo sapiens with 4 samples.

Results

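The aminoacyl-tRNA synthetase genes examined here were 35 genes of 19134 protein-coding genes that could be matched to the peak lists, chosen by name as 19 genes for cytosolic enzymes and 16 for mitochondrial ones. Their peaks were those listed under the NCBI Gene ID of a synthetase gene, with each genomic position counted once. This gave 32 of 9107 HNRNPC peaks and 184 of 63507 PABPC4 peaks.

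Both proteins were mapped by cross-linking and immunoprecipitation in MDA-MB-231, a human breast cancer cell line, after all cells had received 400 mJ/cm2 of ultraviolet light at 254 nm. The labels name no drug or genetic change. HNRNPC, a mostly nuclear protein that binds U-rich RNA, was recovered from 2 samples with an HNRNPC antibody. PABPC4, a protein that binds poly(A) tails, was recovered from 2 samples with a PABPC4 antibody by PAPERCLIP, in which sequencing starts from the poly(A) tail and so marks the 3′ ends of mRNAs. For each protein the tags of both samples had been merged before peaks were called, so no spread between samples and no test between samples was available, and no control antibody or input library was analysed here.

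Each synthetase joins an amino acid to the tRNAs that carry its anticodons, the step that makes the genetic code readable. Cells hold a cytosolic set and a separate mitochondrial set, both encoded in the nucleus. Several cytosolic enzymes sit together in the multi-tRNA synthetase complex, held by the scaffold proteins AIMP1, AIMP2 and EEF1E1, and GARS1 and KARS1 each serve both compartments from 1 gene.

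The peaks at the ends of the synthetase mRNAs can be read in the sequence itself. An end peak is here a PABPC4 peak whose last base lay within 50 nt of an annotated 3′ end of the gene. The windows below are the last 30 nt of peaks, on hg38 and 5′ to 3′ on the strand of the mRNA. They were picked because they show the hexamer that directs cleavage and polyadenylation, so they are no sample of the end peaks. TARS1 to LARS1 are the tallest end peaks with the hexamer in this window, and CARS2 is shown for the AUUAAA form. KARS1, at 504 tags, is not printed because its AUUAAA began at -32 nt from the last base. The poly(A) signal, AAUAAA or AUUAAA (written with T), is in capitals, and the last letter is the last base of the peak. RARS1 and SARS1, which hold neither form in this window, are shown for contrast, as is FARSB, whose peak lay away from any annotated end.
TARS1, chr5:33468059-33468088, + strand, 898 tags: gtgtaaaAATAAAaaaaaaatttattcaca
GARS1, chr7:30633882-30633911, + strand, 657 tags: accacttgcgctAATAAAaaaaaaaaaaaa
QARS1, chr3:49095933-49095962, − strand, 397 tags: tgtcAATAAAgaacagctaaattctcctag
YARS1, chr1:32775237-32775266, − strand, 309 tags: aaattcaAATAAAatgtctgaacaagggtg
IARS2, chr1:220148013-220148042, + strand, 301 tags: actgaaAATAAAggcattctggaaaaatac
FARSA, chr19:12922480-12922509, − strand, 252 tags: tattgtctAATAAAgtgggcagttgccccc
EPRS1, chr1:219968601-219968630, − strand, 229 tags: aacaactccagtAATAAAtatcatgaacta
LARS1, chr5:146113911-146113940, − strand, 226 tags: cctggacctAATAAAttttttttccctttc
CARS2, chr13:110641412-110641441, − strand, 118 tags: gtcagcATTAAAgtaaggcaaccaacagtg
FARSB, chr2:222571747-222571776, − strand, 90 tags: ctttgatgtttAATAAAgtagaaagcactg
RARS1, chr5:168519273-168519302, + strand, 345 tags: gcataagtaaagaaaatttgtcaaccaggc
SARS1, chr1:109238134-109238163, + strand, 336 tags: ctcagtcttcttccccgggcttgaaccccg

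PABPC4 peaks were listed in 31 of 35 synthetase genes (88.6%, 95% Wilson interval 74.0 to 95.5%), against 61.5% of all protein-coding genes. HNRNPC peaks were listed in 18 of 35 (51.4%, 35.6 to 67.0%), against 19.8%. Wilson intervals here and below cover counting error only, and genes or peaks are not replicate samples. All 18 genes with an HNRNPC peak also had a PABPC4 peak, as did 97.8% of all genes with an HNRNPC peak. Among genes with a PABPC4 end peak, 16 of 28 synthetase genes (57.1%, 39.1 to 73.5%) had an HNRNPC peak, against 35.8% of all 8275 such genes. HNRNPC peaks were listed in 10 of 19 cytosolic and 8 of 16 mitochondrial genes.

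**Figure D1:**
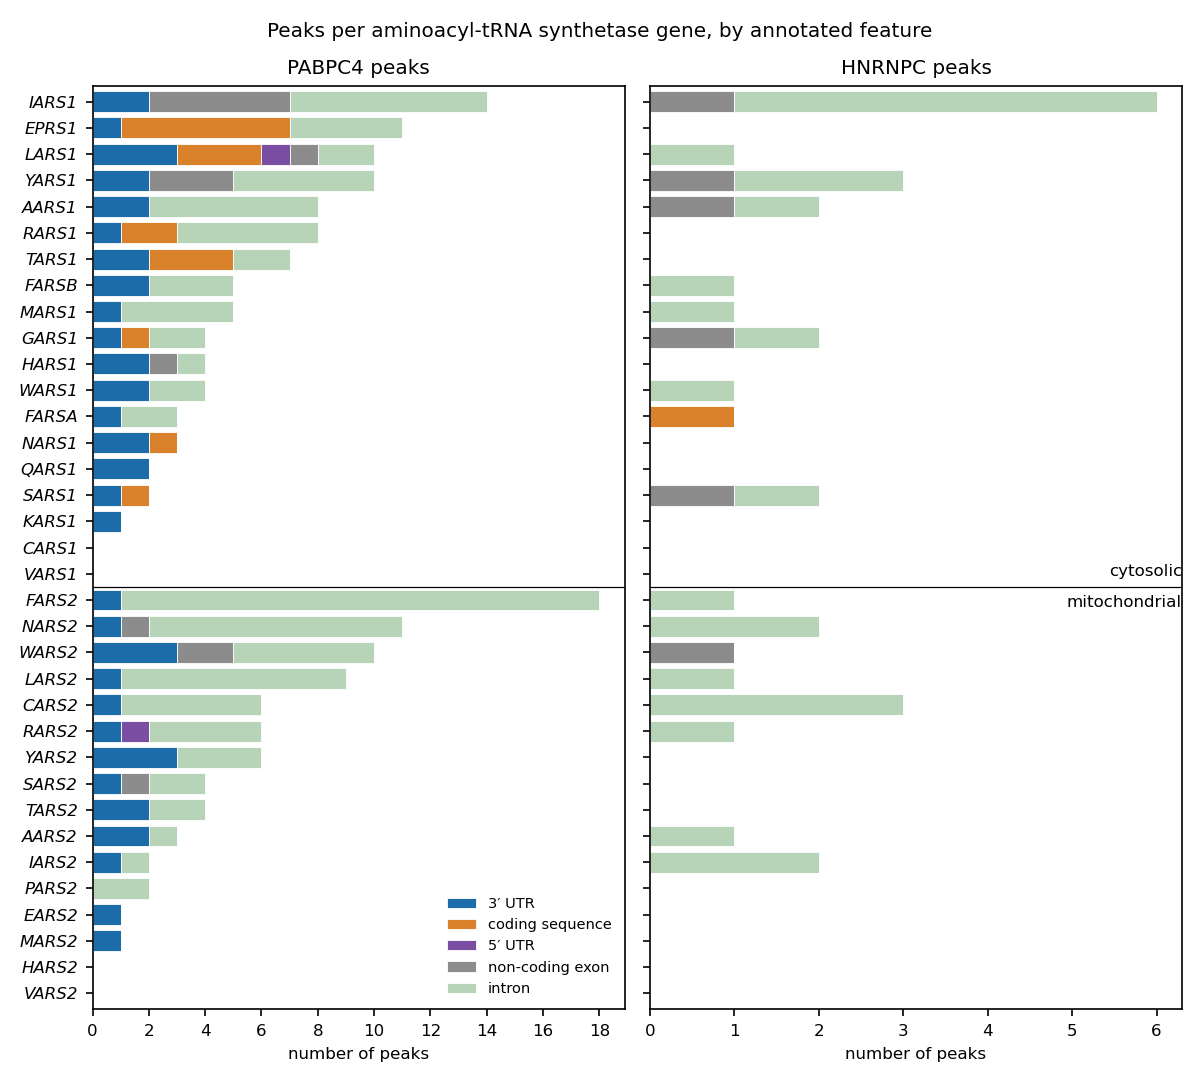
Number of PABPC4 peaks (left) and HNRNPC peaks (right) in each synthetase gene, coloured by the annotated feature at the centre of the peak, with cytosolic enzymes above the line and mitochondrial enzymes below it. FARS2 had the most PABPC4 peaks (18) and IARS1 the most HNRNPC peaks (6), and coding-sequence peaks of PABPC4 were listed only for cytosolic enzymes.

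No peak of either protein was listed for CARS1, VARS1, HARS2 or VARS2, which charge tRNAs with cysteine, valine, histidine and valine. For 3 of these genes the reference genome holds further copies. Exons were divided into 50-nt windows, and each window was searched for an exact copy on an alternate contig, a second version of a variable region that the genome copy used here also holds. Such copies covered 40 of 41 windows of CARS1 (97.6%), 69 of 69 of VARS1 and 59 of 59 of VARS2, against at most 2.78% in each of the 31 synthetase genes that had peaks. Among 694 protein-coding genes with copies of at least 90% of their windows, 0 had an HNRNPC peak and 3 (0.432%) had a PABPC4 peak inside the gene, against 20.7% and 64.1% of 18743 genes with copies of under 5%. VARS2 and VARS1 both lay in a stretch of 5.13 Mb on chromosome 6 (28442030 to 33572552) that held 183 protein-coding genes and no peak of either list. The part of these copies in the absence of peaks was not tested. HARS2 differed, with no window on an alternate contig. Of 43 neighbouring genes within 500 kb of it, 15 had a PABPC4 peak and 4 had an HNRNPC peak. Both shares were lower than the 64.1% and 20.7% of genes with copies of under 5%.

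PABPC4 marked the annotated 3′ ends of most synthetase mRNAs. There were 37 end peaks in 28 of 35 genes (80.0%, 64.1 to 89.96%), against 43.2% of all protein-coding genes. Of these peaks, 27 ended within 5 nt of the annotated base, and the matching share of all end peaks is not given here. A peak anywhere in the 3′ UTR was listed in 30 of 35 (85.7%, 70.6 to 93.7%), against 50.7%. Of the 37 end peaks, 26 had a poly(A) signal starting in the 40 nt up to their last base (70.3%, 54.2 to 82.5%), against 62.9% of all end peaks. AAUAAA was present in 21 and AUUAAA in 5. The median start of the signal was -21 nt from the last base (quartiles -23 and -18), against -20 nt over all end peaks that held one.

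Cytosolic synthetase mRNAs gave the taller end peaks. The height of a peak is the number of pooled unique tags at its summit, and a taller peak can come from more mRNA or from more binding, which cannot be told apart here. TARS1, for threonine, led with 898 tags at chr5:33467973-33468088, a height above that of 97.96% of all genes with an end peak. GARS1, for glycine in both compartments, followed with 657 tags. KARS1, for lysine in both compartments, had a single PABPC4 peak, of 504 tags. QARS1, for glutamine, reached 397 tags, RARS1, for arginine, 345, and SARS1, for serine, 336. YARS1, for tyrosine, and FARSA, a subunit of the cytosolic phenylalanine enzyme, reached 309 and 252 tags. EPRS1, which charges both glutamate and proline, had an end peak of 229 tags. IARS2, for mitochondrial isoleucine, was the only mitochondrial enzyme among the 10 tallest, with 301 tags. LARS1, next in order, had 226 tags.

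Over the 16 cytosolic genes with an end peak, the median of the tallest end peak was 240.5 tags (68 to 898), against 37 tags (7 to 301) over 12 mitochondrial genes and 68 tags (quartiles 30 and 145) over all 8275 genes with one. The ranges of both compartments overlapped. These heights cover end peaks only. End peaks held 57.8% of the summed PABPC4 heights of the cytosolic genes and 23.1% of those of the mitochondrial genes. A taller PABPC4 peak lay away from an annotated end in mitochondrial AARS2, NARS2, RARS2, SARS2, WARS2 and YARS2. The same held in cytosolic AARS1, EPRS1 and HARS1. Of 14 enzymes with a gene of its own in each compartment, 10 had an end peak in both (with FARSA standing for the cytosolic phenylalanine enzyme), and the cytosolic gene had the taller one in 9 of 10. The widest gaps were TARS1 over TARS2, 898 against 30 tags, and RARS1 over RARS2, 345 against 11 tags. The exception was isoleucine, with 145 tags in IARS1 and 301 in IARS2. Alanine gave nearly equal heights, 68 tags in AARS1 and 60 in AARS2. The 7 synthetases of the multi-tRNA synthetase complex, EPRS1, IARS1, LARS1, MARS1, QARS1, RARS1 and KARS1, all had an end peak, with a median of 229 tags (145 to 504). The 9 other cytosolic genes with one had a median of 252 tags (68 to 898).

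**Figure D2:**
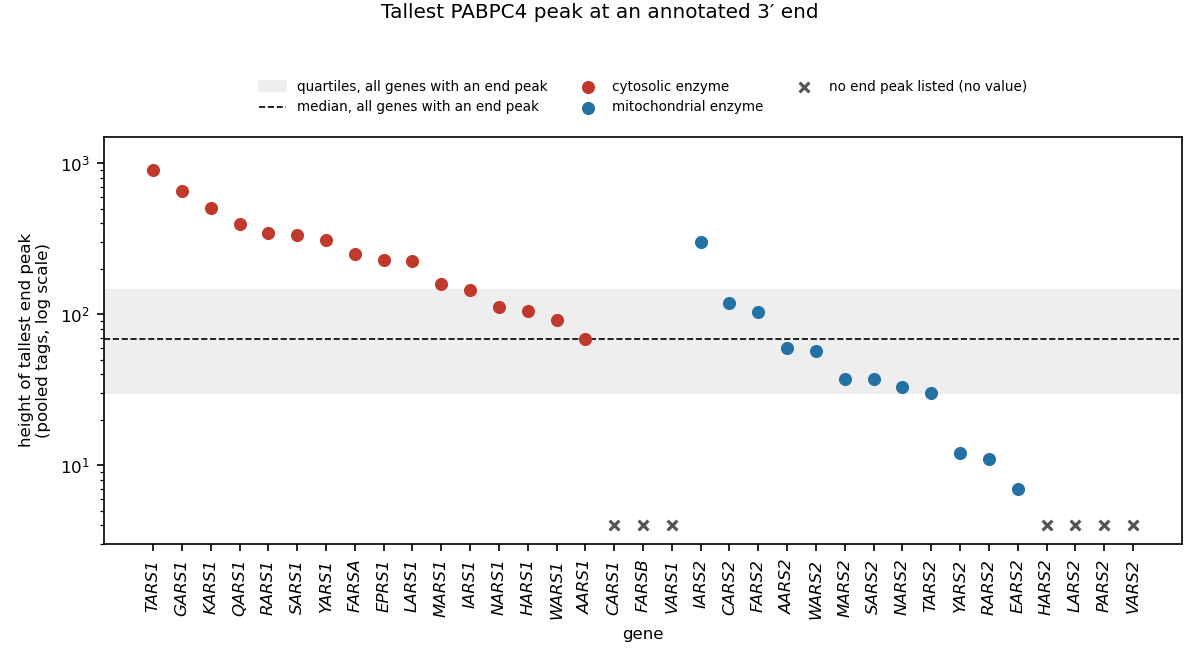
Height of the tallest PABPC4 end peak of each synthetase gene in pooled tags (log scale), ordered within cytosolic and mitochondrial enzymes. The dashed line is the median (68 tags) and the grey band the quartiles (30 and 145 tags) over all genes with an end peak, and crosses mark genes with no end peak. Cytosolic enzymes reach 898 tags, while among mitochondrial enzymes IARS2 (301 tags) stands above the band.

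Some tall end peaks lacked a signal or ran into an A-rich stretch. In 21 of 28 genes (75%, 56.6 to 87.3%) the tallest end peak held a signal, against 69.4% of all genes. The 7 without one were AARS2, EARS2, RARS1, SARS1, TARS2, WARS2 and YARS2. An A-rich stretch, defined as a run of 6 A, or any 10 nt with at least 7 A, in the next 50 nt of genome, followed 10 of 37 end peaks (27.0%), against 28.2% of all end peaks. The 657-tag peak of GARS1 held AAUAAA and was followed by an A-rich stretch. That peak spanned the stop codon and ended 51 nt past it, 21 nt short of an annotated end. A further GARS1 end peak, of 182 tags, ended 184 nt past the stop codon. The 345-tag RARS1 end peak, which lacked a signal, was followed by an A-rich stretch, and the 336-tag SARS1 peak was not. The end peaks of IARS2 (301 tags), LARS1 (226 tags) and IARS1 (145 tags) held AAUAAA and were also followed by an A-rich stretch.

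More than 1 end peak was listed in 9 of 28 genes (32.1%, 17.9 to 50.7%), against 27.3% of all genes with an end peak. The heights of the ends of a gene were often far apart. TARS1 had 25 tags at an end 221 nt past the stop codon and 898 tags at 380 nt. QARS1 had 51 tags at 34 nt and 397 tags at 96 nt, and the lower of these held no signal and was followed by an A-rich stretch. LARS1 had 226 tags at 195 nt and 18 tags at 1068 nt, so the end nearer the stop codon was the taller. IARS1 showed the same order, with 145 tags at 464 nt and 13 tags at 596 nt. In both LARS1 and IARS1 an A-rich stretch of genome followed the taller end peak and not the lower one. What part genomic A had in these heights was not tested. HARS1, for cytosolic histidine, had ends of more equal height, 80 tags at 264 nt and 105 tags at 351 nt, but only the second held a signal.

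Of the 31 genes with PABPC4 peaks, FARSB, LARS2 and PARS2 had none at an annotated end. FARSB, the other subunit of the cytosolic phenylalanine enzyme, had a 90-tag 3′ UTR peak that ended 124 nt past the stop codon, with the AAUAAA printed above and no A-rich stretch after it, 4725 nt short of the nearest annotated end. A 113-tag peak of FARSB further along its 3′ UTR preceded an A-rich stretch in a sense Alu element. LARS2, for mitochondrial leucine, had a 48-tag 3′ UTR peak with neither a signal nor an A-rich stretch, 128 nt beyond an annotated end. PARS2, for mitochondrial proline, had 2 intron peaks only, of 33 and 19 tags, both before A-rich stretches. EARS2, for mitochondrial glutamate, had a single peak, of 7 tags, at an annotated end, and the list gave the same position under 2 other gene IDs as well.

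Away from the 3′ ends, most PABPC4 peaks of the synthetase genes lay in introns, next to A-rich sequence. Introns held 104 of 184 peaks (56.5%, 49.3 to 63.5%), against 60.2% of all PABPC4 peaks, and 3′ UTRs held 47 (25.5%, 19.8 to 32.3%), against 29.8%. The 5′ UTR held 1 peak in LARS1 and 1 in RARS2 (1.09%), against 0.422%. The authors' p-value was above 0.001 for 3 of 184 (1.63%), against 2.91%. Among the 28 genes with an end peak, 22 also had an intron peak (78.6%, 60.5 to 89.8%), against 61.9% of all genes with one. A further 14 PABPC4 peaks (7.61%, 4.59 to 12.4%) lay in exons of transcripts not annotated as protein-coding, against 3.87%. These are called non-coding exons here, though they can belong to isoforms of the synthetase gene. Of the 14, 2 were inside the pseudogenes RPS3AP12 and RBMX2P3, which lie within WARS2. An A-rich stretch followed 79 of 104 intron peaks (76.0%, 66.9 to 83.2%), against 71.2% of all PABPC4 intron peaks. The intron peaks were also often in Alu elements, repeats whose sense copies end in a run of A. A sense Alu was matched at 60 of 104 (57.7%, 48.1 to 66.7%), against 47.6%, and an A-rich stretch or a sense Alu at 92 of 104 (88.5%), against 85.6%. Only 6 of 104 (5.77%, 2.67 to 12%) held a poly(A) signal, against 6.39% of all intron peaks. The share matched to sense Alu depended on the flank searched, and was 9.62% when no flanking sequence was added.

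The windows below show the genome after such peaks. Each follows the tallest peak of its gene that lay away from an annotated end and before an A-rich stretch, for 5 genes, and the stretch is in capitals. They are 30 nt of hg38, 5′ to 3′ on the strand of the RNA, within the 50 nt after the peak. The first is coding sequence and the other four are introns. Whether such peaks arose at genomic A or at a poly(A) tail was not tested.
EPRS1, chr1:219987257-219987286, − strand, 253 tags: AGAAAGAAAAagaaaataaatctgaaaagc
IARS2, chr1:220136625-220136654, + strand, 160 tags: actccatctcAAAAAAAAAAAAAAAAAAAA
HARS1, chr5:140686590-140686619, − strand, 110 tags: AAAAAAAAAAAAAAAAgaattttagaaaac
RARS1, chr5:168496365-168496394, + strand, 69 tags: caagactctctgtcAAAAAAAAAAAAAAAA
FARS2, chr6:5616007-5616036, + strand, 66 tags: tcttAAAAAAAAAAAAAAAAAAAAAAAAAc

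**Figure D3:**
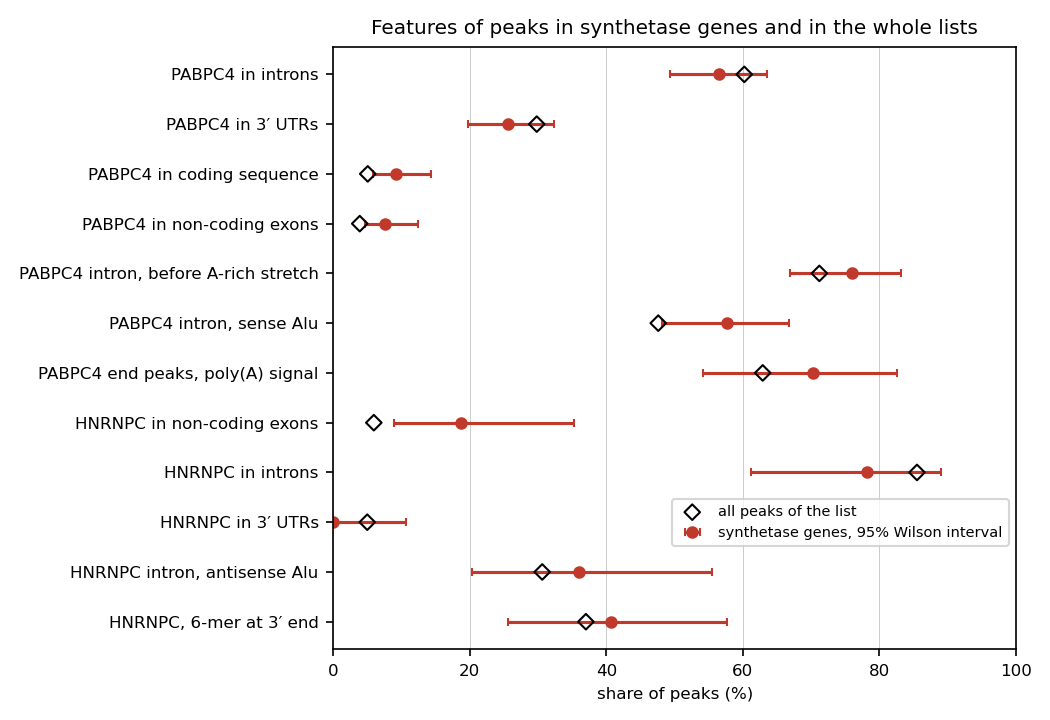
Share of peaks with each feature (percent) in the synthetase genes (red points, bars are 95% Wilson intervals) and in the whole list of the same protein (open diamonds). The whole-list share lies below the interval for PABPC4 peaks in coding sequence (9.24% against 5.04%) and in non-coding exons (7.61% against 3.87%), for PABPC4 intron peaks in sense Alu (57.7% against 47.6%) and for HNRNPC peaks in non-coding exons (18.8% against 5.93%), and inside it for the other 8 features.

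The number of PABPC4 intron peaks followed the length of the introns. The genes with most were FARS2, for mitochondrial phenylalanine, with 17 intron peaks in 563 kb of intron, NARS2, for mitochondrial asparagine, with 9 in 123 kb, LARS2 with 8 in 154 kb, IARS1 with 7 in 61.2 kb and AARS1 with 6 in 27.5 kb. Spearman's rho between intron length and number of intron peaks was 0.72 over the 31 synthetase genes with a PABPC4 peak, and 0.71 over all 8275 genes with an end peak. It is a description across genes, which share the same pooled library and are not independent replicates. Per 100 kb of intron, the cytosolic genes had 7.25 PABPC4 intron peaks and the mitochondrial genes 4.81, against 5.39 over all genes with an end peak. The synthetase rates also take in genes without an end peak, so the sets compared are unlike. Without FARS2, which holds 563 of the 1226 kb of mitochondrial intron, the mitochondrial value was 6.34, above that of all genes. The tallest intron peak was the 160-tag peak of IARS2 printed above, and the 17 intron peaks of FARS2 ranged from 7 to 69 tags, all below the 104 tags of its end peak.

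**Figure D4:**
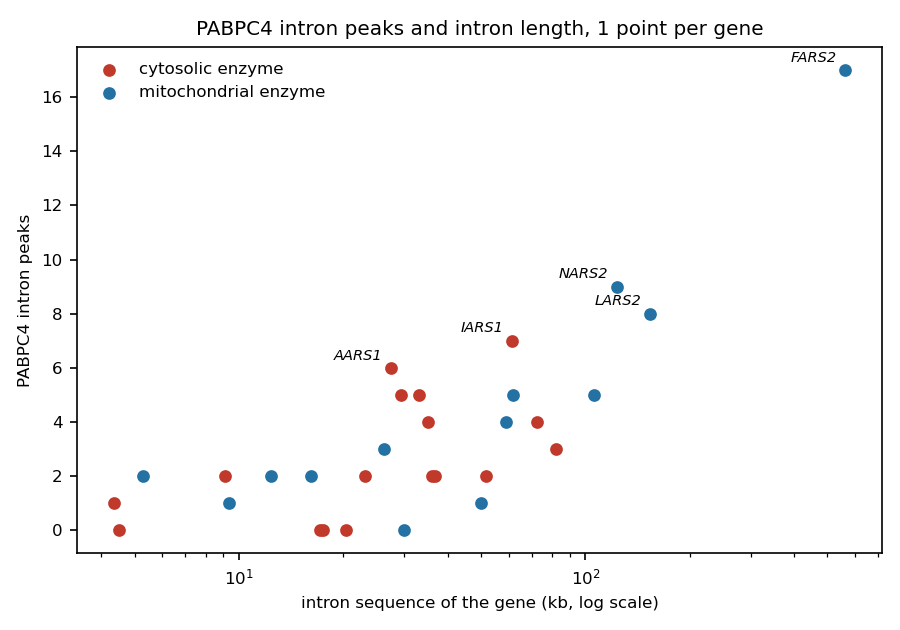
Number of PABPC4 intron peaks against the intron length of each synthetase gene (kb, log scale), with 1 point per gene that had a PABPC4 peak. Genes with 6 or more are named, and MARS2, which has no intron, is not drawn. FARS2 lies at the upper right with 17 peaks in 563 kb.

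Signal-bearing peaks inside introns were few. A peak counted here if it lay in an intron or in coding sequence away from an annotated end, had a poly(A) signal starting in the 40 nt up to its last base and had no A-rich stretch in the next 50 nt of genome. There were 4 such peaks, in 4 of 28 genes with an end peak (14.3%, 5.70 to 31.5%), against 6.05% of all genes with one, and all 4 were in introns. LARS1, for cytosolic leucine, had one of 10 tags at chr5:146127152-146127190, 626 nt from the nearest exon. TARS1 had one of 88 tags at chr5:33452929-33452975 in a sense Alu, WARS2, for mitochondrial tryptophan, one of 29 tags at chr1:119067326-119067346, and YARS2, for mitochondrial tyrosine, one of 13 tags at chr12:32727892-32727926. The YARS2 peak lay 19312 nt past the stop codon of the representative transcript, beyond its last exon. It counted as intron because the annotated gene extends further, and DNM1L overlaps it on the other strand. The windows below are the last 30 nt of the LARS1, TARS1 and YARS2 peaks, with the signal in capitals, and show that in TARS1 the signal itself lies within a run of A inside the peak. The WARS2 peak is 21 nt wide and its AUUAAA began at -36 nt from its last base, so that signal lay upstream of the peak and not in it.
LARS1, chr5:146127152-146127181, − strand, 10 tags: cttttacAATAAAgagaaaacaagttgccc
TARS1, chr5:33452946-33452975, + strand, 88 tags: gtcgctaaaaaATTAAAaaaaaaaaaactt
YARS2, chr12:32727892-32727921, − strand, 13 tags: ttatatcctttaatctAATAAActtacttc

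PABPC4 peaks in coding sequence were listed only for cytosolic enzymes. There were 17 (9.24% of 184, 5.85 to 14.3%), against 5.04% of all PABPC4 peaks, in 7 genes. The mitochondrial genes had 0 of 83 peaks in coding sequence, which allows a share of up to 3.61%. Of 28 genes with an end peak, 7 had one (25%, 12.7 to 43.4%), against 19.8% of all genes with an end peak. EPRS1 held 6 of them, LARS1 and TARS1 3 each, RARS1 2, and GARS1, NARS1 and SARS1 1 each, where that of GARS1 is the end peak that spans the stop codon. The tallest peak of EPRS1 was a coding one, of 253 tags at chr1:219987287-219987346, above the 229 tags of its end peak. It ended in codon 965 of 1512, just before the A-rich coding stretch printed above. A coding peak of 121 tags in EPRS1 ended in codon 242, also before an A-rich stretch. TARS1, for threonine, had coding peaks of 144, 98 and 17 tags that ended in codons 15, 31 and 73 of 723. SARS1 had one of 144 tags that ended in codon 67 of 514. An A-rich stretch of genome followed 9 of the 17 (52.9%, 31.0 to 73.8%), against 62.0% of all PABPC4 coding peaks.

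**Figure D5:**
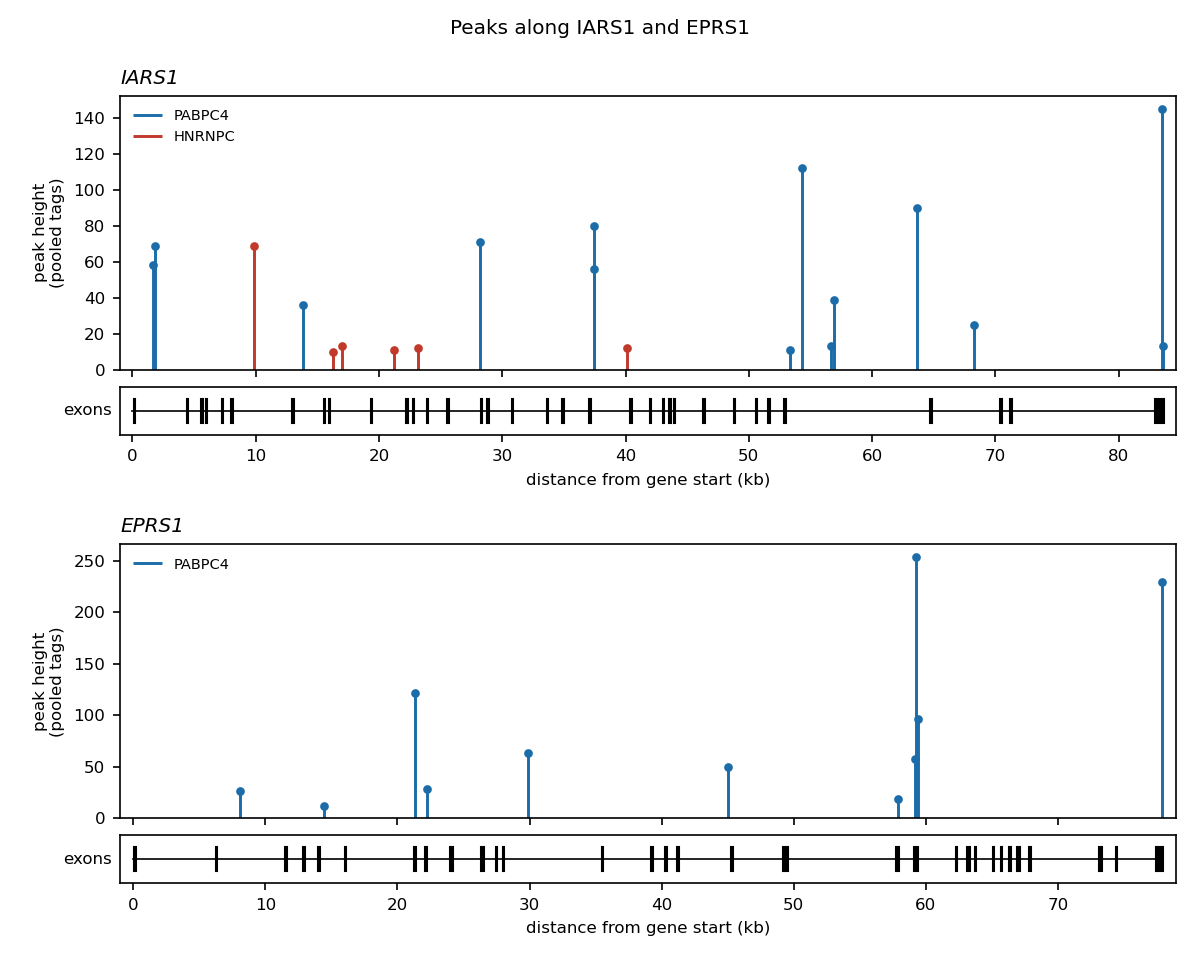
Peaks along IARS1 and EPRS1 by distance from the start of the gene (kb), with height in pooled tags, and the exons of the representative transcript below. In IARS1 the HNRNPC peaks, the tallest of 69 tags, stand between PABPC4 peaks and not on them, and in EPRS1 the 253-tag coding peak is taller than the 229-tag peak at the 3′ end.

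Of the 32 HNRNPC peaks of the synthetase genes, 6 lay in non-coding exons (18.8%, 8.89 to 35.3%), against 5.93% of all HNRNPC peaks. This class holds exons of any transcript not annotated as protein-coding, so such a peak can lie in an intron of the coding mRNA. Introns held 25 (78.1%, 61.2 to 89.0%), against 85.5% of all HNRNPC peaks, and coding sequence held 1, in FARSA, against 1.94%. No HNRNPC peak was in a 3′ UTR, which allows a share of up to 9.38%, against 4.97% of all HNRNPC peaks, so a lack of 3′ UTR binding was not detectable at this number of peaks. The median height was 10 tags (6 to 69), against 11 over the whole list. The authors' p-value was above 0.001 for 9 of 32 peaks (28.1%), against 28.6%. The other peaks lay in 14 synthetase genes, and the matching count over all genes is not given here. In FARSB, GARS1, LARS1 and AARS2 every HNRNPC peak was above 0.001. None of the 32 shared a base and a strand with any PABPC4 peak, which allows a share of up to 9.38%, against 0.944% of all HNRNPC peaks, and the median distance to the nearest PABPC4 peak of the same gene was 3708 nt (643 to 23786).

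Short sequences were then read at the HNRNPC peaks. A hexamer, GTGTCA, stood at the 3′ end (last 20 nt or next 10 nt) of 13 of 32 (40.6%, 25.5 to 57.7%), against 37.0% of all HNRNPC peaks and 0.450% of all PABPC4 peaks. A run of 5 U (TTTTT in the genome) lay in the 50 nt before the peak or its first 9 nt in 11 of 32 (34.4%, 20.4 to 51.7%), against 34.1%. Both were present in 3 (8.22% of the whole list) and neither in 11 (37.1% of the whole list). Antisense Alu elements, which carry runs of U, were matched at 9 of 25 intron peaks (36.0%, 20.2 to 55.5%), against 30.6% of all HNRNPC intron peaks. With no flanking sequence added to the search, the share in antisense Alu was 12%, so most assignments to antisense Alu, also those named by gene, rest on the 100 nt of flank. The U run was near 6 of the 9 peaks in antisense Alu and 5 of the other 23, against 71.3% and 19.0% over the whole list. GTGTCA was at the end of 2 of the 9 and 11 of the other 23, against 16.4% and 45.4% over the whole list. The last base of the hexamer lay at a median of -2 nt (-8 to 3) from the last base of the peak, against -1 over the whole list, and the next letter was G in 11 of 13 (84.6%), against 85.1% over the whole list. What placed it there was not tested. Without the 13 peaks that held it, 19 HNRNPC peaks in 12 synthetase genes remained, and 6 genes had no other HNRNPC peak. The matching share of all protein-coding genes is not given here, and the 19.8% above counts peaks with and without the hexamer.

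The windows below show the tallest HNRNPC peak with the hexamer in 4 genes, as the last 20 nt of the peak and the 10 nt after it on hg38, 5′ to 3′ on the strand of the RNA, with GTGTCA in capitals.
NARS2, chr11:78515119-78515148, − strand, 21 tags: ggttctgtGTGTCAgtcactaattttctgc
SARS1, chr1:109215324-109215353, + strand, 20 tags: atcagatttttGTGTCAgtccagcccttag
CARS2, chr13:110670304-110670333, − strand, 17 tags: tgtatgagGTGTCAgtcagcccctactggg
IARS2, chr1:220112825-220112854, + strand, 15 tags: ctgtaattacagGTGTCAgccaaagataaa

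The next windows are 30 nt around the longest U run near the 5′ end of peaks in YARS1 and SARS1, with the run in capitals, to set the other sequence beside it. The YARS1 run of 21 T lies in an antisense Alu, and the shorter SARS1 run of 6 T does not.
YARS1, chr1:32816105-32816134, − strand, 11 tags: ctatcTTTTTTTTTTTTTTTTTTTTTgagg
SARS1, chr1:109215247-109215276, + strand, 20 tags: gaatttaattttgccacaTTTTTTgtttag

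IARS1, for cytosolic isoleucine, carried the most HNRNPC peaks, 6 of the 32. Its tallest, of 69 tags, stood above the 21 tags of the next highest in any synthetase gene and lay in an antisense Alu with GTGTCA at its end. The others had 10 to 13 tags, 3 of them in antisense Alu with a U run and 1 in a non-coding exon. YARS1 had 3 peaks, of 11, 10 and 9 tags, of which the 11-tag peak was in an antisense Alu. SARS1 had 2, of 20 tags in an intron 152 nt from an exon and of 18 tags in a non-coding exon, both with GTGTCA. MARS1, for cytosolic methionine, had 1 peak of 14 tags, with neither sequence. AARS1 had 2, of 12 and 9 tags, the lower in an antisense Alu 132 nt from an exon. WARS1, for cytosolic tryptophan, had 1 of 10 tags, LARS1 1 of 7 tags with a U run, FARSB 1 of 6 tags with GTGTCA and GARS1 2 of 7 tags each. The only HNRNPC peak in coding sequence was that of FARSA, of 9 tags, which ended in codon 454 of 508.

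Among mitochondrial enzymes, NARS2 had the tallest HNRNPC peak, of 21 tags at chr11:78515129-78515268, 12182 nt from the nearest exon, beside a 7-tag peak in an antisense Alu. CARS2, for mitochondrial cysteine, had 3 peaks, of 17, 17 and 10 tags, all with GTGTCA. FARS2 had 1 of 17 tags, 30789 nt from the nearest exon and with neither sequence. IARS2 had 2 peaks, of 15 and 10 tags, both with GTGTCA and the taller also with a U run in an antisense Alu. LARS2 had 1 of 10 tags with a U run. AARS2, for mitochondrial alanine, and WARS2 each had 1 with GTGTCA, of 7 and 6 tags, and RARS2, for mitochondrial arginine, had 1 of 7 tags in an antisense Alu. Per 100 kb of intron, the cytosolic genes had 2.26 HNRNPC intron peaks and the mitochondrial genes 0.897, against 1.22 over all genes with a PABPC4 end peak. Here too the synthetase rates take in genes without an end peak. Without FARS2 the mitochondrial value was 1.51, above that of all genes.

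Other genes that act with the synthetases were taken from a list, of which 13 are reported here and the rest are left out of every count. They are the complex scaffolds, the amidotransferase subunits QRSL1, GATB and GATC, and factors that modify, proofread, export or deliver charged tRNAs. All 13 had a PABPC4 peak, against 61.5% of all genes, and 10 had an end peak, against 43.2%. Their median tallest end peak was 34 tags (9 to 284), against 68 tags over all genes with one and 115 tags (7 to 898) for the synthetase genes. The tallest end peaks were those of AIMP2, a scaffold of the complex, with 284 tags, TUFM, the mitochondrial elongation factor that delivers charged tRNAs, with 142 tags, and GATB with 96 tags. The median covers end peaks only. In AIMP1, EEF1E1, GATC, SEPSECS, AARSD1 and XPOT a taller PABPC4 peak lay away from an annotated end, of 606 tags in GATC against 78 at its end. In AIMP2, GATB, PSTK and TUFM the end peak was the tallest. HNRNPC peaks were listed in 3 of the 13, against 19.8% of all genes, namely XPOT, the tRNA exporter, with 2 of up to 11 tags, DTD1, a proofreading deacylase, with 1 of 19 tags, and SEPSECS, of the selenocysteine pathway, with 1 of 5 tags.

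Markers of the labelled cell line were read in the same list. PABPC4 3′ UTR peaks were present in the mesenchymal genes VIM, CAV1, ANXA1, MSN and CD44, with tallest end peaks from 331 to 10197 tags. Of the luminal and epithelial genes, PGR had no peak, ESR1 had none in a 3′ UTR, and GATA3, CDH1 and EPCAM had 1, 1 and 3 there. Their tallest end peaks were of 56 tags in CDH1 and 88 in EPCAM, and GATA3 had none.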

How the data were processed

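HNRNPC was mapped by irCLIP and PABPC4 by PAPERCLIP, in 2 samples each. The authors collapsed reads by molecular identifier, extracted the identifiers (UMI-tools), removed linkers (cutadapt), aligned to hg38 (BWA 0.7.17, per the submitters' processing notes) and called peaks on pooled tags by valley seeking in CTK, as described for HNRNPC. Processing of PABPC4 was not described separately, and the HNRNPC list is named as HITS-CLIP although the labels say irCLIP. The deposited signal of each peak is its height, the pooled unique tags at the summit, which the authors did not scale to depth. The other deposited column used, of no numeric unit, names the peak, its NCBI Gene ID and the authors' p-value.

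The lists held 10388 HNRNPC and 69778 PABPC4 entries, and each position was counted once. The heights sum to 147196 and 4019739, which are not library depths, and depth per sample is not known here. Heights were compared only within a list. Peak centres were assigned to features of GENCODE 44, and a poly(A) signal was sought in the last 40 nt. Alu elements were matched with blastn 2.17.0 (E-value 1e-05, 100 nt of flank). Intervals are 95% Wilson intervals for counting error, and a count of 0 was given the share of 3 counts. Python 3.11.15, pandas 2.3.3, pysam 0.24.0 and bedtools 2.31.1 were used, and the classification was tested on simulated data.

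The synthetase genes and gene lists were chosen with earlier results of these data known. Described one by one were genes with an HNRNPC peak, the 10 tallest end peaks, genes with no end peak, those with a signal-bearing intron or coding peak and no A-rich stretch, and the 5 with most intron peaks. Further genes and the printed windows were chosen after their values were seen. Some genes of the pathway list and 1 sequence window are not reported here, and the counts and median given for that list leave those genes out. Alternatives varied the p-value, height, entries counted, gene assignment, feature order, end and signal windows, A-rich definition and Alu limits. Including annotated ends marked as not found, leaving out HNRNPC peaks with GTGTCA at the end, and leaving out FARS2 from intron rates, were chosen after seeing the data.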

Additional observations from a re-analysis of the deposited data

How the results depend on the processing

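Of 55 alternative values, 46 stayed close to the reported one (a count or rate within 1.5 times, a share within its 95% interval) and 9 moved. With only peaks at or above the median height of their list, the synthetase genes kept 15 HNRNPC peaks in 9 genes and 95 PABPC4 peaks. Leaving out HNRNPC peaks with GTGTCA at the 3′ end, chosen after seeing the data, left 19 peaks. For neither of these cuts is the matching share of all protein-coding genes given here. Leaving out FARS2, also chosen then, raised the mitochondrial rate of HNRNPC intron peaks to 1.51 per 100 kb. An A-rich stretch followed 53.8% of PABPC4 intron peaks when 20 nt were searched. Sense Alu was matched at 37.5% of them with an E-value limit of 1e-10 and at 9.62% without added flank, and antisense Alu at 12% of HNRNPC intron peaks without added flank. The shorter search and the missing flank read less sequence by construction. Likewise, the cut at the median height removes the lower peaks of any set of genes by construction. No paired analysis was possible because each list holds the merged tags of both samples, and for the same reason no replicate could be left out. The number of HNRNPC peaks, 32, limits every share given for that protein.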
